A study of Mus musculus with 4 samples.

Results

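The nuclear-encoded subunits of the mitochondrial respiratory chain were followed in scRNA-Seq libraries of mouse lung. Members were taken by symbol: the Nduf subunits of complex I, with Ndufa4 placed in complex IV, the 4 Sdh subunits of complex II, the Uqcr subunits of complex III, the Cox4 to Cox8 subunits of complex IV and the Atp5 subunits of complex V. This gave 84 of the 32285 genes counted, with 36 in complex I, 4 in complex II, 8 in complex III, 19 in complex IV and 17 in complex V. The rule used no measured value. There were 4 libraries, each from the pooled left lobes of 3 male C57BL/6 mice, and all lobes had been enzymatically dissociated, cryopreserved and thawed. Young mice were 2 to 3 months old and aged mice 22 months old, and at each age the mice were nonventilated (naive) or ventilated for 3 hours. The study's methods give a restricted diet for the aged mice, while the labels give it without naming an age, so that any difference in diet cannot be told apart from age. The ventilated mice had also received ketamine and medetomidine anesthesia, buprenorphine, vascular lines, oxygen, a high tidal volume and no positive end-expiratory pressure, so that these cannot be told apart from ventilation itself. The question addressed was whether the response of lung cells to ventilation differed between young and aged mice.

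In respiration, complexes I and II pass electrons from NADH and succinate to ubiquinone, complex III hands them to cytochrome c and complex IV to oxygen, while complex V (ATP synthase) uses the proton gradient built by complexes I, III and IV to make ATP. Most subunits are encoded in the nucleus, translated in the cytosol and imported, and they join a smaller set of core subunits encoded by mitochondrial DNA. Several complex IV subunits exist as alternative isoforms, some restricted to muscle, testis or oxygen-sensing cells, and lung cells range from mitochondria-rich alveolar type II cells to neutrophils, which rely mainly on glycolysis.

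After limits on genes, mitochondrial share and depth per barcode, 9514 of 15428 barcodes were kept as cells, with 1960 to 2750 cells and 17736722 to 22711057 UMIs (unique molecular identifiers, 1 for each captured transcript) per library and a median of 7236.5 to 8370.5 UMIs per cell. Only 23 barcode sequences occurred in more than 1 library. Levels are UMIs per 1000000 UMIs of the same cells (CPM), so a lower share cannot be told apart from a gain of other RNA. Log2 ratios were taken after adding 1 UMI to either sum. Where 4 values are given in a row, they are for young mice without and with ventilation and then for aged mice without and with ventilation. With a single pooled library per group there were no replicates and no test was possible. Intervals are exact 95% intervals for counting error only and do not cover differences between mice or pools. Cells were clustered into 17 classes, of which 14 held at least 20 cells in every library, and 12 of these 14 were named from marker genes, with 6 to 16 of their markers detected. Of the members, Cox4i2 and Cox6a2 were among the 2000 variable genes used for clustering. The remaining pair were shallow clusters, with Apln or Igfbp6 among their leading genes, and a median of 964 and 1736 UMIs per cell. They were left unnamed. The top 10 genes of the Apln cluster held 5 aerocyte markers (Apln, Chst1, Fibin, Ednrb and Car4), against 1 for the class called aerocyte-like. Its 563 cells were kept apart from the 448 of that class.

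Sequence upstream of the start site was examined because the members are known as targets of shared regulators, NRF1, the ETS factor GABPA and YY1. The 6 stretches below were chosen to show the 3 members that were most reduced after ventilation in the young (Cox7a2l, Ndufa6 and Ndufv3), the member with the largest increase in the young (Cox5a), and 2 members that hold an NRF1 or an ETS match (Cox6a1 and Uqcrh). Sequences are from RefSeq on GRCm38.p6, 5′ to 3′ on the strand of the gene, limited to bases before the start that lie outside annotated exons (so that those of Ndufa6, Cox6a1 and Uqcrh end 31, 23 and 1 bases before the start), with motif matches on either strand in capitals.
Cox7a2l (chr17:83514334-83514533, - strand): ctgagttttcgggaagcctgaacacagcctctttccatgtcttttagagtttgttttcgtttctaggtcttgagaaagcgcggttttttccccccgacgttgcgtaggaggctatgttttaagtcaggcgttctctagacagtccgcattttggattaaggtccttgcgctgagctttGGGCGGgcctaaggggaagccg
Ndufa6 (chr15:82354323-82354491, - strand): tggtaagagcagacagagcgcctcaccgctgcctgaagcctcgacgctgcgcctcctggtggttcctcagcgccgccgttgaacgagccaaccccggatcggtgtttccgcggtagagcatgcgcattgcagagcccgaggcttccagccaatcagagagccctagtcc
Ndufv3 (chr17:31519981-31520114, + strand): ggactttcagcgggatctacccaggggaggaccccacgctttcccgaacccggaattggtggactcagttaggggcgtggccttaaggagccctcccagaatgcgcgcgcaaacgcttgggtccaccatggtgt
Cox5a (chr9:57521032-57521231, + strand): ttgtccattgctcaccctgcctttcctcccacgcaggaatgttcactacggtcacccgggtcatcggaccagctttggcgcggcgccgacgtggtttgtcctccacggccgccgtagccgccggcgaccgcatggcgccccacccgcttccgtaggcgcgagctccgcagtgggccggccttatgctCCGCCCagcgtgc
Cox6a1 (chr5:115348982-115349129, - strand): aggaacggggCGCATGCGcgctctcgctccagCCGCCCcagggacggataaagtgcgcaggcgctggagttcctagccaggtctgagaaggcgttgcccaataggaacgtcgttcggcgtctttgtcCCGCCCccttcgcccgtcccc
Uqcrh (chr4:116075072-116075268, - strand): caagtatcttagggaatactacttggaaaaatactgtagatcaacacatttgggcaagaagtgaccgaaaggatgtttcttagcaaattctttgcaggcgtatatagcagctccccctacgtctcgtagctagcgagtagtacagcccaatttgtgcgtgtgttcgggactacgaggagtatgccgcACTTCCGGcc

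The motifs searched, on both strands, were CGCATGCG for NRF1, CCGGAAGT for ETS factors, AGATGGCGG for YY1, GGGCGG for SP1 and TGACGTCA for cyclic AMP response elements (CRE). Over windows from 250 bases before to 50 bases after the start, available for 68 of the 84 members, the NRF1 core was present in 9 members (13.2%), against 2.07% of 27025 genes. The YY1 core was found in 5 members (7.35%, against 1.24% of all genes), the ETS core in 5 (7.35%, against 4.31%), the CRE in 4 (5.88%, against 2.03%) and the SP1 box in 28 (41.2%, against 38.2%). In the stretches shown, Cox7a2l and Cox5a each had a single SP1 box, Cox6a1 an NRF1 core and a pair of SP1 boxes, Uqcrh an ETS core, and Ndufa6 and Ndufv3 none of the letters searched. The Cox7a2l stretch precedes a RefSeq start that lies inside the span of the gene given below. Over the whole windows, Ndufa6 and Ndufv3 did hold an SP1 box. Of the 9 members lower past 1.5-fold in the young (below), Atp5g2, Atp5k and Uqcr11 held an NRF1 core in the window. Cox7a2l, Ndufa6, Ndufv3, Ndufb3, Ndufa7 and Ndufa3 did not. Such matches describe the letters only. Members without a window included Atp5a1, Atp5f1, Atp5mpl, Cox4i1, Cox4i2, Cox6a2, Cox6c, Cox8c, Ndufa2, Ndufb9, Ndufs1, Sdhc, Uqcrb, Uqcrc2 and Uqcrq.

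Over all cells kept, the summed level of the 84 members was lower after ventilation in the young but not in the aged. For young mice it was 11080 CPM without and 9056 CPM with ventilation, and for aged mice 10350 CPM without and 10380 CPM with ventilation. The young ventilated library stood below all others. The ratio of ventilated to nonventilated was 0.817 (counting interval 0.812 to 0.822) in the young and 1.003 (0.997 to 1.009) in the aged. With age, the ratio was 0.934 (0.929 to 0.939) between the nonventilated libraries and 1.146 (1.139 to 1.154) between the ventilated libraries.

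The shift in the young was spread over many members. To describe it gene by gene, members were read only where the mean was at least 50 CPM and at least 20 UMIs were seen in 1 of the libraries compared, and a gene was called past the threshold when its CPM differed by at least 1.5-fold. In the young, 56 of the 70 members that passed this filter were lower after ventilation by any amount, against 51.3% of all genes tested, and the median log2 ratio was -0.30 for the members and -0.01 for all genes. Past 1.5-fold, 9 members were lower (14.7% of all genes) and 0 were higher (15.2% of all genes), so the members' share below the threshold was close to that of all genes while none lay above it. In the aged, 35 of 70 were lower by any amount (57.5% of all genes), with medians of -0.00 for the members and -0.07 for all genes. Only 1 member was lower past 1.5-fold (10.9% of all genes) and 0 were higher (9.33%). Of the 70 members read at both ages, 35 were lower in both ventilated libraries, 21 only in the young and 14 were higher in both, and 68 had a lower log2 ratio in the young. The difference between ages was not tested. A member can pass the filter through the library where it is high, so these counts cover only the members read. The 13 members that passed in no comparison of all cells were Ndufa9, Ndufs1, Ndufs8, Ndufv1, Sdhc, Sdhd and the isoforms Cox4i2, Cox6a2, Cox6b2, Cox7a1, Cox7b2, Cox8b and Cox8c.

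**Figure D1:**
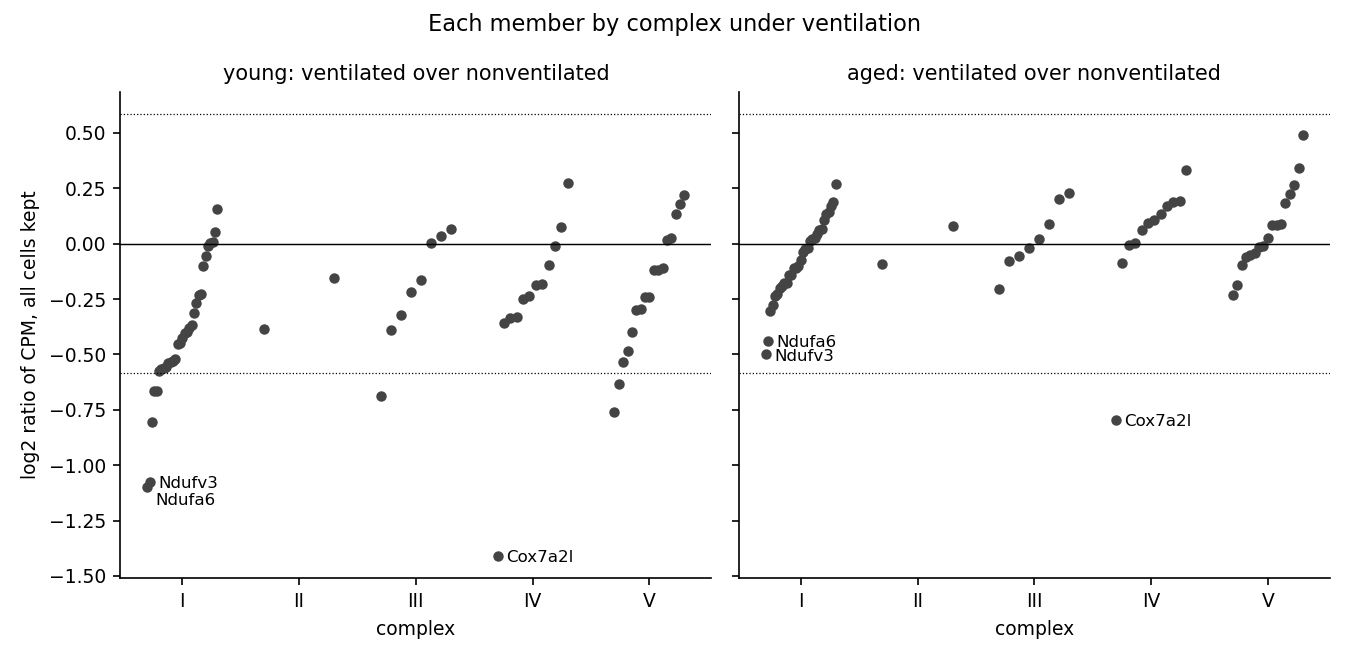
Log2 ratio of ventilated over nonventilated for each member that passed the filter, in all cells kept, by complex, for young and aged mice. Most young points lie below 0 (56 of 70), while 35 of 70 aged points do, and Cox7a2l is the lowest at both ages.

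Complex I was the most reduced in the young. Its summed level went from 3483 to 2616 CPM in the young (log2 -0.41) and from 3216 to 3039 CPM in the aged (log2 -0.08). Within it, the 29 accessory subunits, which surround the catalytic part, went from 3065 to 2253 CPM in the young (log2 -0.44), and the 7 core subunits, which carry the electron path from NADH to ubiquinone, from 418 to 362.4 CPM (log2 -0.21). Of the 14 classes compared, the accessory subunits had the lowest young ratio of the 6 sets (core and accessory complex I, and complexes II to V) in 9. Complex II, which is also a citric acid cycle enzyme, went from 236.9 to 195.7 CPM in the young (log2 -0.28), and complex III from 1143 to 966.4 CPM (log2 -0.24). The complex III set does not hold its subunit Cyc1, which the symbol rule does not take. Cyc1 was higher after ventilation at both ages, at 48.4, 58.0, 46.0 and 61.0 CPM. Complex IV went from 3067 to 2572 CPM (log2 -0.25) and complex V from 3151 to 2705 CPM (log2 -0.22). In the aged, complexes II to V stayed within log2 ratios of -0.02 and 0.05.

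Of the 9 members past 1.5-fold in the young, 5 were accessory subunits of complex I. Cox7a2l, also known as SCAF1, is a relative of Cox7a2. It has been described as joining complexes III and IV into supercomplexes. Whether it has this role in the mouse strain used here was not tested. The Cox7a2l gene lies on chr17:83501918-83517330 (minus strand, GRCm38). Its level was 212 CPM without and 79.9 CPM with ventilation in the young, and 184 CPM and 106 CPM in the aged. Both ventilated libraries were thus below both nonventilated libraries, and the young ventilated library was the lowest. The ratio was 0.377 (0.356 to 0.398) in the young and 0.576 (0.545 to 0.608) in the aged, where Cox7a2l was the only member past 1.5-fold. Ndufa6, a LYR-motif subunit at the matrix arm of complex I on chr15:82350140-82354322 (minus strand), measured 169, 78.8, 150 and 111 CPM, and its ratio was 0.467 (0.441 to 0.495) in the young and 0.738 (0.698 to 0.781) in the aged. Ndufv3, a small subunit of the NADH-oxidizing module on chr17:31520115-31531331 (plus strand), measured 71.8, 34.1, 71.3 and 50.4 CPM, with ratios of 0.475 (0.435 to 0.518) and 0.707 (0.650 to 0.768). These genes shared the order of Cox7a2l, with both nonventilated libraries above both ventilated ones.

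The other 6 were lower mainly in the young. Ndufb3, in the membrane arm of complex I, measured 87.5, 50.0, 80.6 and 73.1 CPM, and Ndufa7 173, 109, 153 and 142 CPM. Ndufa3 was at 112, 70.4, 86.0 and 96.6 CPM, and was the lowest in the young ventilated library but higher in the aged ventilated than in the aged nonventilated library. Uqcr11, a small subunit of complex III, measured 184, 114, 159 and 138 CPM. Atp5g2, a gene for subunit c of the rotating ring of ATP synthase, was at 175, 103, 159 and 135 CPM, and Atp5k, for subunit e in its membrane part, at 152, 97.8, 116 and 123 CPM. Among the 9, the aged log2 ratios ran from -0.80 for Cox7a2l to 0.17 for Ndufa3, and 7 of the 9 were below 0.

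The member with the highest mean in each complex was lower in the young ventilated library in every case. Cox4i1, the usual isoform of the regulatory subunit 4 of complex IV, measured 444.8, 373.9, 422.9 and 420.9 CPM. Atp5e (subunit epsilon of the ATP synthase stalk) was at 347.0, 247.7, 328.1 and 326.0 CPM, and Uqcrh (the hinge protein of complex III) at 294.5, 225.0, 274.6 and 259.8 CPM. Each of these was lowest in the young ventilated library and changed by less than 0.1 on the log2 scale in the aged. Ndufa2 of complex I measured 188.5, 130.7, 177.2 and 151.3 CPM, and Sdha, the flavoprotein of complex II, 89.9, 68.7, 88.3 and 82.8 CPM.

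A few members were higher after ventilation. In the young the highest ratios were those of Cox5a, Atp5g1 and Atp5f1. Cox5a, a matrix-side subunit of complex IV, measured 144.2, 174.3, 160.6 and 180.7 CPM (log2 0.27 in the young and 0.17 in the aged). Atp5g1, another gene for subunit c, was at 107.6, 125.2, 108.8 and 130.7 CPM, and Atp5f1, for the peripheral stalk, at 145.7, 165.1, 142.3 and 180.3 CPM. The nonventilated libraries were the lower ones for each of them. Atp5g1 and Atp5g2 encode the same mature protein, and their levels differed in direction at both ages: Atp5g1 was higher and Atp5g2 lower in both ventilated libraries. In the aged, the highest ratios were those of Atp5md (133.7, 136.0, 115.3 and 162.1 CPM, log2 0.49), Atp5f1 (log2 0.34) and Cox5b (166.8, 175.6, 155.7 and 195.7 CPM, log2 0.33).

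With age, the members differed little between the nonventilated libraries: 66 of 71 were lower in the aged by any amount (49.2% of all genes), but 0 were past 1.5-fold in either direction (0.929% of all genes lower and 2.38% higher). The lowest log2 ratios were those of Atp5k (-0.39), Ndufa3 (-0.38) and Ndufa5 (-0.25, at 103.7 CPM in the young and 87.4 CPM in the aged nonventilated library). The highest were Cox5a (0.16), Ndufab1, the mitochondrial acyl carrier protein (0.10, at 61.98 and 66.37 CPM), and Uqcrfs1, the Rieske iron-sulfur protein (0.06, at 56.88 and 59.4 CPM). Between the ventilated libraries, 6 of 69 were lower in the aged by any amount (52.5% of all genes), and again 0 passed 1.5-fold (5.83% lower and 4.19% higher among all genes). The highest were Ndufb3 (0.55), Ndufa6 (0.49) and Ndufa3 (0.46), which were among the members most reduced in the young ventilated library that both comparisons share. The lowest were Uqcrc1 (-0.10, at 66.62 CPM in the young and 62.3 CPM in the aged ventilated library), Ndufa12 (-0.08, at 75.47 and 71.6 CPM) and Atp5d (-0.03, at 149.8 and 146.8 CPM).

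Other RNA moved with these changes. The 83 cytosolic ribosomal protein genes, parts of the translation machinery, summed to 86470, 64000, 81210 and 76430 CPM (log2 -0.43 in the young and -0.09 in the aged), and 77 of the 80 that passed the filter were lower in the young. The 13 mitochondrially encoded subunits summed to 37210, 34670, 38160 and 35760 CPM, and Malat1, a nuclear RNA, was at 26520, 27590, 24390 and 24060 CPM. Per UMI of the nuclear members, the mitochondrially encoded subunits had 3.36 and 3.83 UMIs in the young, and 3.69 and 3.44 in the aged nonventilated and ventilated libraries. The part of these RNAs in the members' values was not tested. With mitochondrial, ribosomal protein and Malat1 UMIs taken out of the totals, the young log2 ratio of the summed members was -0.33, against -0.29 with them. Ribosomal protein UMIs were a smaller share of the young ventilated total, so taking them out lowers this ratio by itself.

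By cell class, the level and the change both differed. In the young nonventilated library, the named classes ran from 4833 CPM in neutrophil-like cells and 8942 CPM in general capillary-like cells to 12890 CPM in monocyte-like and 13130 CPM in alveolar type I and II-like cells, whose intervals (12760 to 13030 and 12730 to 13540 CPM) overlapped. The alveolar type I and II-like class was shallow, with a median of 1410.5 UMIs per cell. A finer alveolar type II-like cluster, with a median of 15459 UMIs, was at 7641, 10540, 12320 and 11450 CPM. It held only 14, 17, 18 and 4 cells. Alveolar type I-like cells, too few to compare, were at 11450 CPM in the young nonventilated library. A basophil-like class, too small to compare, was at 3593 CPM there, and the shallow clusters were at 17690 and 22470 CPM. In 12 of the 14 classes the ratio of ventilated to nonventilated was lower in the young than in the aged. Counting error was wider in small classes, and cells left out for a mitochondrial share over 10% held 5739, 3757, 5984 and 5404 CPM of the members.

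**Figure D2:**
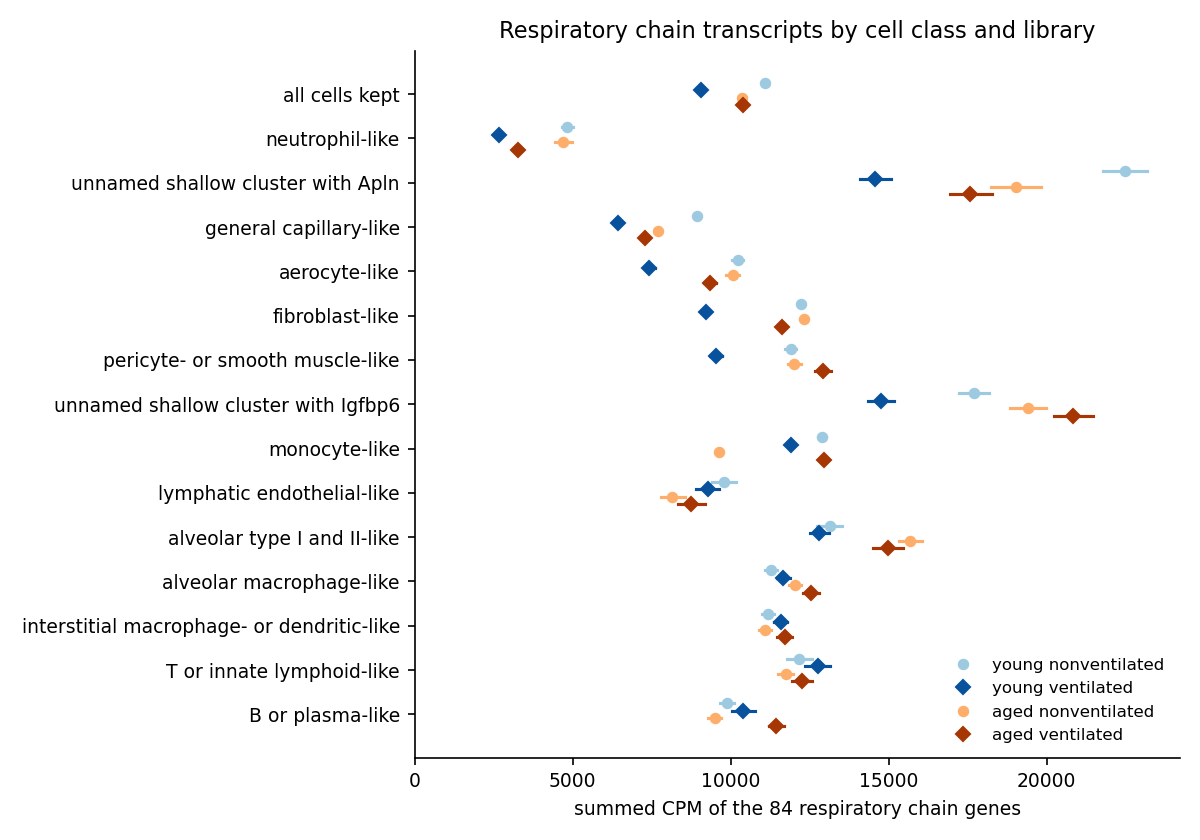
Summed CPM of the 84 members in each class and library, with exact 95% counting intervals. Neutrophil-like cells are the lowest class compared in every library, and the young ventilated value is the lowest of the 4 in capillary, aerocyte, fibroblast and pericyte- or smooth muscle-like cells.

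The sums were lower after ventilation in the young in the capillary, fibroblast and mural classes. General capillary-like cells, named from markers of alveolar capillary endothelium, measured 8942, 6448, 7714 and 7301 CPM (ratio 0.721, interval 0.711 to 0.731, in the young and 0.947, 0.932 to 0.961, in the aged). In the young, 25 of 65 members were lower past 1.5-fold (19.6% of all genes in these cells), and in the aged 0 of 63 (15.1%). Median log2 ratios of the members were -0.49 and -0.08, against -0.05 and -0.04 for all genes. The most reduced members were Cox7a2l (172, 69.1, 123 and 83.1 CPM), Ndufb3 (72.7, 30.8, 52.9 and 41.3 CPM) and Ndufa6 (135, 59.4, 113 and 76.4 CPM), and each was lower in the ventilated library at both ages. Cox5a went the other way, at 101, 116, 98.2 and 122 CPM. Ribosomal protein genes summed to 56190, 42080, 44230 and 43350 CPM in these cells. No class was named arterial or venous, and Selp and Sox17, a listed arterial marker, were among the leading genes here. The class can thus hold other endothelium than capillary. A finer venous endothelial-like cluster of 287 cells, also with Selp among its leading genes, was at 9418, 6589, 7820 and 7058 CPM of the members.

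Aerocyte-like cells, the large capillary cells specialized for gas exchange, measured 10230, 7433, 10070 and 9344 CPM (ratio 0.727, 0.708 to 0.747, and 0.928, 0.901 to 0.956). Past 1.5-fold, 32 of 68 members were lower in the young (23.7% of all genes) and 5 of 68 in the aged (17.9%). The leading members were subunits of complex I: Ndufa2 was at 184, 69.7, 185 and 113 CPM, Ndufa8 at 72.9, 28.6, 68.6 and 41.5 CPM, and Ndufa13, which overlaps Yjefn3 on the same strand, at 161, 65.2, 143 and 108 CPM. For each of them the nonventilated libraries were close to each other and the young ventilated library was the lowest. The catalytic subunits of ATP synthase did not follow, with Atp5b at 275, 318, 274 and 350 CPM and Atp5a1 at 178, 163, 173 and 230 CPM. Ribosomal protein genes summed to 39220, 37730, 40230 and 45420 CPM in these cells, lower after ventilation in the young and higher in the aged. The shallow cluster with Apln, which shared aerocyte markers, had member ratios of 0.649 (0.619 to 0.680) in the young and 0.925 (0.875 to 0.978) in the aged.

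Fibroblast-like cells measured 12230, 9222, 12320 and 11620 CPM (ratio 0.754, 0.745 to 0.763, and 0.943, 0.930 to 0.956). In the young 21 of 72 members were lower past 1.5-fold (20.2% of all genes), and in the aged 4 of 74 (13.6%). Ndufa6 was at 183, 67.1, 165 and 108 CPM, Ndufv3 at 79.7, 31.6, 89.3 and 54.0 CPM, and Cox7a2l at 202, 81.9, 204 and 105 CPM. In each of these the nonventilated libraries were well above the ventilated ones at both ages. Cox5a was higher after ventilation, at 100, 167, 118 and 177 CPM (log2 0.74 in the young and 0.58 in the aged), as was Atp5g1 (127, 154, 159 and 203 CPM). The class held more adventitial fibroblast-like cells in the nonventilated libraries (124 and 107 cells, against 42 and 30 in the ventilated), and within that finer cluster the sum was 12140, 8995, 12150 and 11110 CPM. Ribosomal protein genes were at 96660, 70720, 91280 and 80870 CPM.

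Pericyte- or smooth muscle-like cells, the contractile cells around vessels and airways, measured 11900, 9541, 12020 and 12920 CPM, so that the ratio was below 1 in the young (0.802, 0.783 to 0.822) and above 1 in the aged (1.075, 1.048 to 1.102). Past 1.5-fold, 19 of 71 members were lower in the young (11.1% of all genes) and 1 of 74 in the aged (11.2%). Ndufv3 was at 84.9, 37.8, 74.3 and 48.2 CPM, Atp5k at 172, 85.6, 121 and 138 CPM, and Ndufa4 at 175, 88.3, 139 and 126 CPM. Each was lowest in the young ventilated library. In finer clusters, the sum was 7777, 7219, 9141 and 10610 CPM in pericyte-like and 13880, 11270, 13900 and 14410 CPM in smooth muscle-like cells. Ribosomal protein genes followed the same order of libraries within each age, at 66540, 53240, 56800 and 64240 CPM. The finer clusters held 75, 90, 69 and 52 pericyte-like and 87, 50, 58 and 39 smooth muscle-like cells. The young ratio of Ndufa4, which had few UMIs in pericyte-like cells, was 0.503 (0.395 to 0.638) in the whole class. Within smooth muscle-like cells it was 0.764 (0.594 to 0.975). The part of this shift in cells in the class values was not tested.

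**Figure D3:**
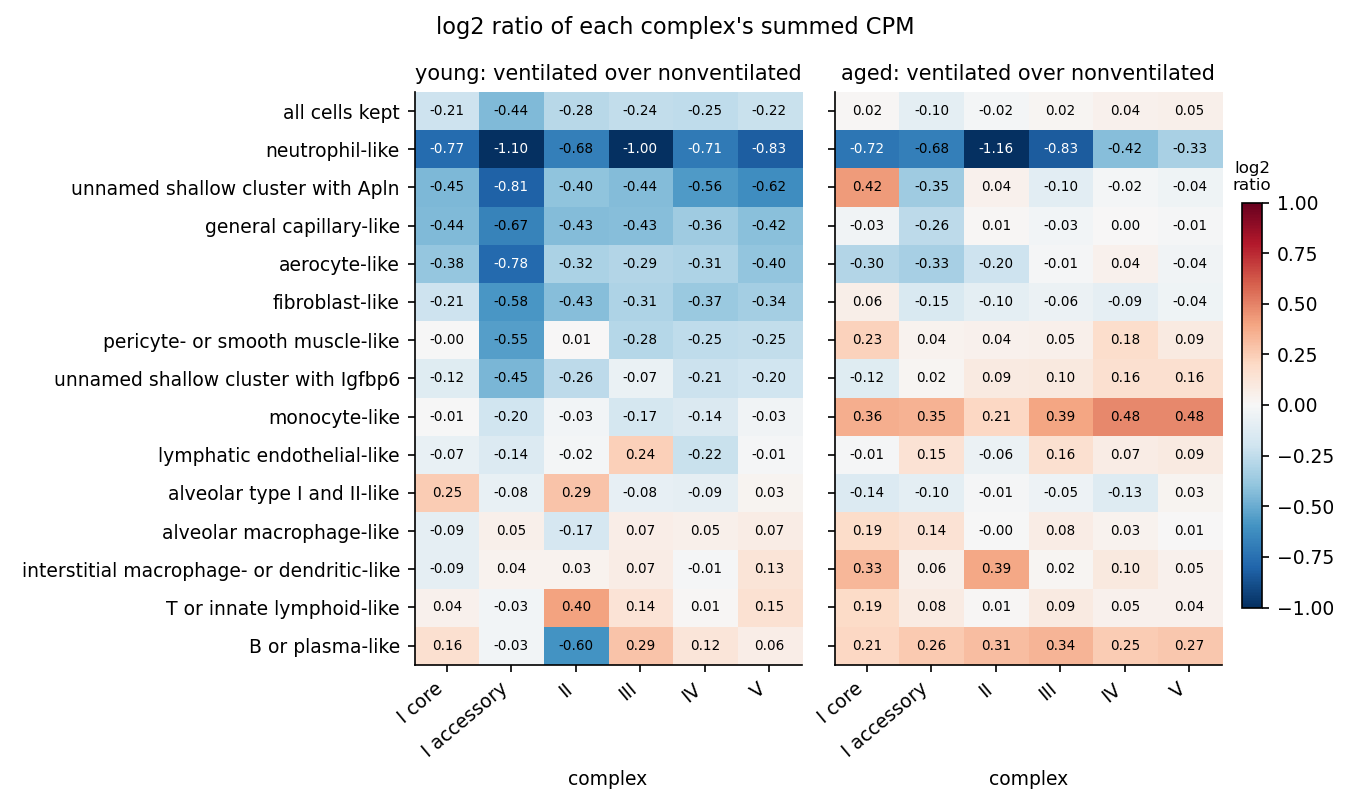
Log2 ratio of ventilated over nonventilated for the summed CPM of each complex in each class compared, for young and aged mice. Values below 0 are concentrated in the young capillary, fibroblast, mural, neutrophil-like and shallow-cluster rows, and the aged monocyte-like row is above 0.

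Neutrophil-like cells were low in respiratory chain RNA and went lower at both ages. They measured 4833, 2662, 4706 and 3280 CPM (ratio 0.551, 0.523 to 0.581, in the young and 0.697, 0.653 to 0.744, in the aged). Only 25 to 29 members passed the filter, which limits what the counts show: 17 of 25 were lower past 1.5-fold in the young and 12 of 29 in the aged, against 36.7% of all genes in either comparison. Ndufa13 was at 105, 34.2, 98.5 and 42.4 CPM, Ndufa3 at 122, 49.6, 98.5 and 68.6 CPM, and Sdha at 48.9, 23.4, 82.1 and 28.98 CPM. Both ventilated libraries were the lower ones for each. Sdha was under 50 CPM in both young libraries and so did not pass the filter there. It passed in the aged only through the nonventilated library, which held 1147 member UMIs in these cells. Cox7c was higher in both, at 59.8, 80.2, 90.3 and 119 CPM. The class held 122, 225, 59 and 263 cells, so the nonventilated values rest on fewer cells, and ribosomal protein genes were at 21770, 12320, 21880 and 14850 CPM.

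Of the 14 classes, monocyte-like cells had the widest gap between the young and the aged log2 ratio, which was not tested. They measured 12890, 11900, 9626 and 12970 CPM, with a ratio of 0.923 (0.909 to 0.936) in the young and 1.348 (1.330 to 1.366) in the aged, where the nonventilated library was the lowest of the 4. In the young, 5 of 69 members were lower (18.8% of all genes) and 1 higher (17.1%) past 1.5-fold. In the aged, 1 of 67 was lower (23.5%) and 22 were higher (15.9%). Uqcrb, a complex III subunit, was at 140, 212, 124 and 242 CPM, Ndufb2 at 66.1, 95.3, 48.3 and 94.3 CPM, and Ndufab1 at 53.2, 64.8, 34.4 and 67.1 CPM. These were higher in both ventilated libraries. Cox7a2l did the reverse and had its strongest change here, at 328, 53.9, 217 and 77.0 CPM (log2 -2.60 in the young and -1.49 in the aged), and Ndufa6 was at 245, 99.2, 174 and 130 CPM. Uqcrh was lower in the young and not in the aged, at 456, 259, 313 and 326 CPM. The young sum did not move the same way throughout: in a nonclassical monocyte-like cluster at the finer resolution, with 144, 210, 360 and 202 cells, the sum was higher after ventilation at both ages, at 9492, 10960, 8744 and 10410 CPM. Without upper limits on genes and UMIs, the young log2 ratio of the whole class was 0.08 in place of -0.12. Ribosomal protein genes in the whole class were at 126700, 80030, 90670 and 89540 CPM.

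The remaining named classes had ratios of ventilated to nonventilated between 0.948 and 1.205. Alveolar macrophage-like cells measured 11280, 11670, 12030 and 12540 CPM (ratio 1.035, 1.011 to 1.060, and 1.042, 1.016 to 1.070). In the young, 3 of 72 members were lower and 3 higher past 1.5-fold (15.4% and 11.5% of all genes), and in the aged 1 of 70 was lower and 3 higher (9.47% and 6.45%). Cox7a2l was lower in these cells too, at 229, 87.6, 249 and 122 CPM, while Atp5g2 was lower in the young and not in the aged (253, 144, 236 and 260 CPM) and Atp5g1 was lowest in the young nonventilated library (95.7, 163, 149 and 146 CPM). Ratios in interstitial macrophage- or dendritic-like cells were 1.036 and 1.055, and in T or innate lymphoid-like cells 1.047 and 1.044, in the young and the aged. B or plasma-like cells had ratios of 1.051 and 1.205, lymphatic endothelial-like cells 0.948 and 1.073, and alveolar type I and II-like cells 0.975 and 0.955. The intervals were 1.17 to 1.241 for the aged B or plasma-like and 0.938 to 1.013 for the young alveolar type I and II-like ratio. The alveolar class had a median of only 1410.5 UMIs per cell, and its young value depended on the cells kept. The young log2 ratio of -0.04 became -0.92 without the cells of highest doublet score, -0.57 at a mitochondrial limit of 5% and 0.11 in cells with at least 2000 UMIs, and that between the ventilated libraries went from 0.23 to 0.91 without the cells of highest doublet score.

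At equal depth per cell, the young ventilated library was again the lowest. With each cell thinned to 2000 UMIs, which left out 242 to 447 shallower cells per library, the median number of member UMIs per cell was 20 without and 14 with ventilation in the young, and 18 and 17 in the aged. In general capillary-like cells the medians were 17, 12, 15 and 14, in fibroblast-like cells 23.5, 18, 24 and 23, and in neutrophil-like cells 9, 4, 11 and 6. Monocyte-like cells had medians of 22, 21, 17 and 23, and the aged nonventilated cells were the lowest of that class.

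Cox7a2l was lower in more classes past 1.5-fold than any other member in the young. It was lower there after ventilation in 13 of the 14 classes and past 1.5-fold in all 13, with log2 ratios from -2.60 to 0.12. In the aged it was lower in 12 and past 1.5-fold in 6, from -1.49 to 0.16. The class without a decrease at either age was the B or plasma-like class, where Cox7a2l was at 284, 306, 239 and 267 CPM. In interstitial macrophage- or dendritic-like cells it was at 324.5, 109.0, 261.0 and 215.4 CPM, and in lymphatic endothelial-like cells at 244.8, 82.85, 137.3 and 92.65 CPM. Its relative Cox7a2, an ordinary subunit of complex IV, hardly differed between libraries over all cells, at 219.1, 217.1, 206.1 and 234.9 CPM. Ndufa6 was lower in 13 of 13 classes in the young and past 1.5-fold in 8, and in the aged lower in 13 of 14 and past 1.5-fold in 5. Ndufv3 was lower in 10 of 10 classes in the young (past 1.5-fold in 6) and in 10 of 11 in the aged (past 1.5-fold in 3). Atp5g2 was lower in 12 of 13 classes in the young, past 1.5-fold in 9, and in 9 of 13 in the aged, past 1.5-fold in 1. For comparison, of the 2159 genes read in at least 10 classes in the young, 2 (0.0926%) were lower past 1.5-fold in at least 13 classes, 41 (1.9%) in at least 9, 73 (3.38%) in at least 8 and 185 (8.57%) in at least 6. In the aged, of 1961 genes, 80 (4.08%) were lower past 1.5-fold in at least 6 classes, 140 (7.14%) in at least 5, 403 (20.6%) in at least 3 and 1220 (62.2%) in at least 1.

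**Figure D4:**
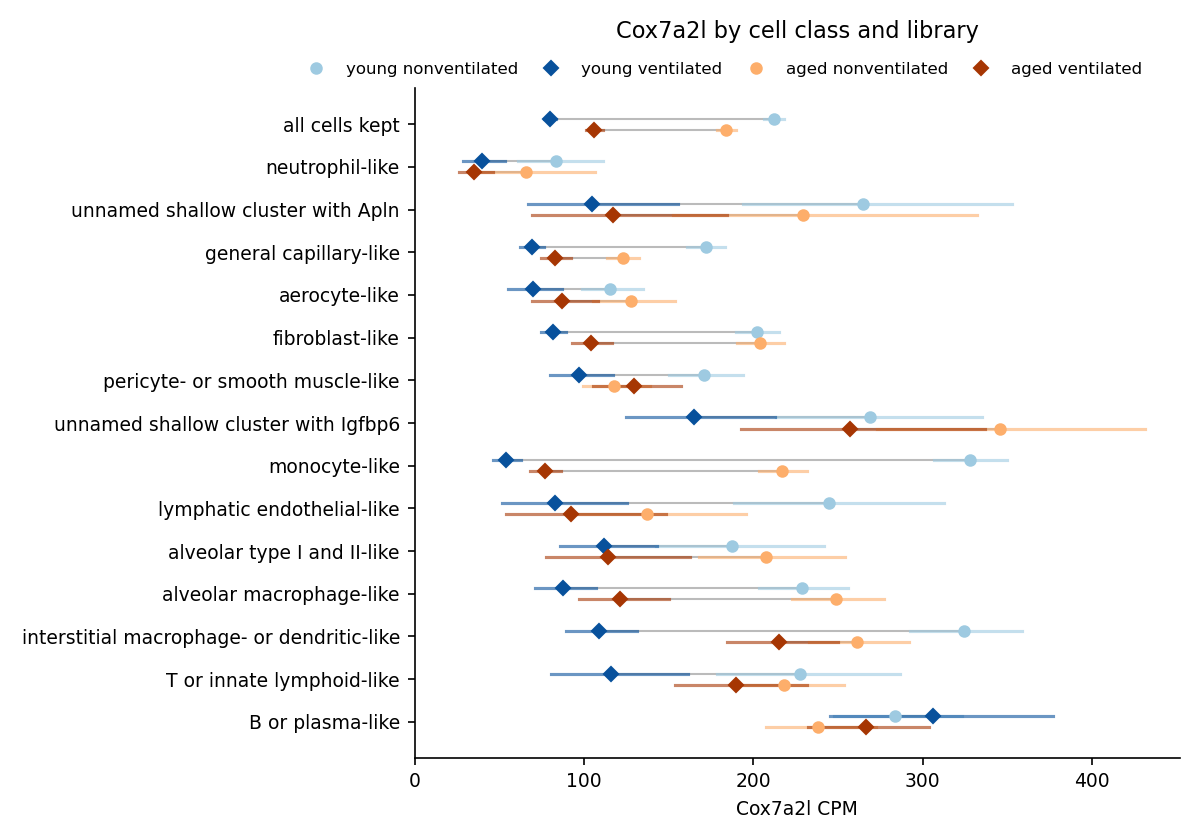
CPM of Cox7a2l in each class and library, with exact 95% counting intervals. The young ventilated value is below the young nonventilated value in 13 of 14 classes, the exception being B or plasma-like cells.

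Of the alternative isoforms of complex IV, Cox4i2, Cox6b2, Cox8b and Cox7b2 were each found mainly in a single class. Cox4i2, the oxygen-responsive alternative to Cox4i1 known from lung vascular smooth muscle and carotid body, had 2863 UMIs, of which 2603 (90.9%) lay in pericyte- or smooth muscle-like cells. In the finer pericyte-like cluster it was at 802, 761, 1267 and 1338 CPM, and in smooth muscle-like cells at 110, 82.3, 152.5 and 126.1 CPM. Within each finer cluster, the aged libraries were above the young ones under the same treatment. In pericyte-like cells the ratio of aged to young was 1.58 (1.39 to 1.79) without and 1.757 (1.55 to 2.00) with ventilation, while ventilation itself gave 0.949 (0.829 to 1.09) in the young and 1.056 (0.938 to 1.19) in the aged. These rest on 75, 90, 69 and 52 cells. In smooth muscle-like cells the ratio of aged to young was 1.387 (1.04 to 1.84) without ventilation. With ventilation it was 1.532 on 49 and 39 UMIs, and its interval (0.985 to 2.40) included 1. In pericyte-like cells Cox4i1 had ratios of aged to young of 1.088 (0.859 to 1.38) and 1.458 (1.13 to 1.88). The summed members were also higher in the aged pericyte-like cells, at 7777, 7219, 9141 and 10610 CPM. Of all Cox4 UMIs (Cox4i1 and Cox4i2 together), Cox4i2 made up 74.6%, 77.5%, 81.0% and 80.6% in pericyte-like and 15.7%, 13.7%, 20.9% and 19.2% in smooth muscle-like cells. At least 1 UMI of Cox4i2 was seen in 245 of 286 pericyte-like cells (85.7%) and 74 of 234 smooth muscle-like cells (31.6%), against 92 of 2366 general capillary-like cells (3.89%) and 0 of 305 B or plasma-like cells, which allows a share of up to 0.984% (3 counts). This limits cells with a UMI, for counting error only, and not cells that express the gene. Median depths in these 4 groups were 6793.5, 10292.5, 7580 and 8441 UMIs per cell. In other classes, at least 1 UMI was also seen in 3 of 669 neutrophil-like cells (0.448%), 8 of 1377 monocyte-like cells (0.581%) and 8 of 307 interstitial macrophage- or dendritic-like cells (2.61%), at median depths of 4802, 9173 and 14617 UMIs. The same was seen in 45 of 1273 fibroblast-like cells (3.54%) and 30 of 448 aerocyte-like cells (6.70%). Whether these UMIs came from free RNA, doublets or low expression was not tested.

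**Figure D5:**
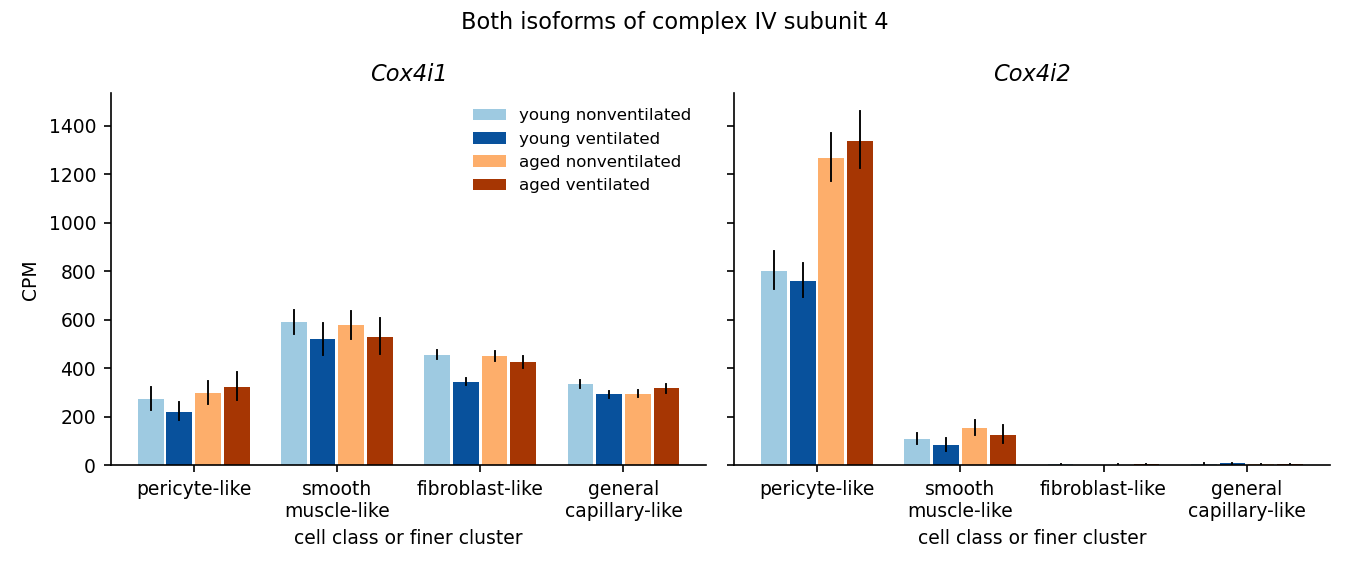
Cox4i1 and Cox4i2 in the finer pericyte-like and smooth muscle-like clusters, by library, with exact 95% counting intervals. Cox4i2 exceeds Cox4i1 in UMIs in pericyte-like cells in all 4 libraries (74.6% to 81.0% of Cox4 UMIs) and is the minor isoform in smooth muscle-like cells.

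Pericyte-like cells also nearly lacked Ndufa4, a complex IV subunit once assigned to complex I. Only 18, 2, 3 and 3 UMIs were counted there (35.3, 3.35, 5.81 and 7.87 CPM), against 257, 196, 242 and 244 CPM in smooth muscle-like cells. Ndufa4l2, a hypoxia-inducible relative of Ndufa4 that is no member by the rule and was looked up after the Ndufa4 values were seen, was at 557, 505, 750 and 713 CPM in pericyte-like and 101, 69.6, 147 and 103 CPM in smooth muscle-like cells. The 2 genes were thus distributed in opposite ways between the clusters in every library.

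Cox6b2, an isoform of Cox6b1 best known from testis, had 1660 UMIs, 77.8% of them in fibroblast-like cells, where it was at 110, 48.9, 83.8 and 43.8 CPM and lower in both ventilated libraries. Cox8b, a muscle and brown fat isoform of Cox8a, had 386 UMIs, 86.8% of them in the same class, at 29.7, 7.55, 27.5 and 11.9 CPM. Both isoforms were thus found mainly in the same class and were lower there in both ventilated libraries. These values are for the whole class, which held fewer adventitial fibroblast-like cells in the ventilated libraries. The part of that shift in the lower values was not tested. Cox6a2, the muscle isoform of Cox6a1, had 180 UMIs, the largest part (36.1%) in alveolar type I and II-like cells at 44.4, 21.7, 66.3 and 33.2 CPM. A further 30% lay in B or plasma-like cells. Cox7a1 had 119 UMIs spread over classes, with 16.8% in each of its leading classes, alveolar type I and II-like and alveolar macrophage-like cells. Cox7b2 had 20 UMIs, with 19 in fibroblast-like cells, and Cox8c had 3. The usual isoforms were found in every class, and over all cells Cox6a1 measured 164.7, 154.2, 155.8 and 162.7 CPM, Cox6b1 229.0, 200.9, 219.9 and 236.9 CPM, Cox7b 124.0, 109.4, 119.4 and 127.2 CPM, and Cox8a 352.0, 298.9, 323.0 and 369.0 CPM.

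Over the 17 classes, the genes whose levels ranked most like Cox4i2 (Spearman's rho, out of 13855 genes) were Gtf2ird1 (0.91), Tmem204 (0.90), Frmd6 (0.90), Pcdhgb4 (0.90) and Trim2 (0.90). For Cox6b2 they began with Scp2 (0.89) and Dbi (0.84), and included another member, Atp5g1 (0.81). Classes share their libraries and differ in depth, and many are near 0 for these isoforms, so these are descriptions only.

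Among other genes of the pathway, given from lists set beside the members, those that carry electrons or exchange metabolites did not move as a group, with log2 ratios of the summed list of 0.01 in the young and 0.08 in the aged. Cycs, cytochrome c, was at 71.7, 134, 77.0 and 122 CPM and Slc25a5, an ADP/ATP carrier, at 151, 213, 150 and 205 CPM, both higher in the ventilated libraries. Slc25a4, the other main carrier isoform, was lower (178, 113, 148 and 114 CPM), as was Etfb, an electron transfer flavoprotein (83.1, 43.6, 77.9 and 51.0 CPM). Only 4 of 48 assembly factors passed the filter, among them Cox17, a copper chaperone (150, 128, 148 and 189 CPM), and Cox16 (120, 83.2, 114 and 105 CPM). Of 12 transcription regulators 2 passed after ventilation, with Nrf1 at 107, 99.3, 116 and 104 CPM and Yy1 at 119.9, 109.6, 129.6 and 107.7 CPM. Pprc1, a coactivator of the PGC-1 family, passed only between the ventilated libraries, and measured 36.0, 61.1, 40.8 and 42.6 CPM. It was thus also higher after ventilation in the young, where its mean did not reach the filter. The 16 citric acid cycle enzymes had log2 ratios of -0.10 and -0.08, and the 78 mitochondrial ribosomal proteins -0.03 and 0.16.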

How the data were processed

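Reads were mapped by the authors with Cell Ranger 7.0.0 against mm10 (reference 2020-A), and they deposited, per library, whole-number UMI counts for each gene and barcode, without normalization. This tool does not count reads that map to several genes, so subunits with near-identical copies elsewhere can be undercounted, and its stated default for this version includes intronic reads. Of the members, 1 (Ndufa13) overlaps another counted gene on the same strand.

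Here, barcodes were kept that had 200 to 5000 genes, no more than 10% mitochondrial UMIs and no more than 21021 UMIs (the 93rd percentile of those left), which gave fewer cells than the study retained. The study took its percentile over the cells under analysis, and whether before or after the other limits, or per library, is not given in the sources used here. Cells were clustered with Seurat 5.3.0 in R 4.3.3 (2000 variable genes, 37 components, resolution 0.18, and 0.5 for finer clusters) and named from marker lists. UMIs were summed per library and class. Python 3.11.15, numpy 2.4.6, pandas 2.3.3, scipy 1.17.1 and scanpy 1.11.5 were used for the rest, and the scripts were tested on simulated data. Doublets were treated only by the upper limits on genes and UMIs, and by an alternative without the 5% of cells with the highest Scrublet scores.

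The members, gene lists and marker lists were chosen with earlier results of these data known. Members were named by rule: the highest mean in each complex, the 3 highest and 3 lowest ratios of each comparison over all cells and, as examples, within classes, and the alternative isoforms with their usual counterparts. Atp5g1 with Atp5g2, Ndufa4l2, and the count of classes per member were picked after their values were seen. Gene positions are from GENCODE M21 (GRCm38, the build of mm10), in which all 84 identifiers were found. Some results under the naming rule are not reported here.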

Additional observations from a re-analysis of the deposited data

Results flagged for a closer look

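In some groups the ratios after ventilation lay on opposite sides of 1 at the 2 ages, for the summed members beyond counting error. The differences were not tested, since each group is a single library. In monocyte-like cells the log2 ratio of the summed members was -0.12 in the young and 0.43 in the aged. In pericyte- or smooth muscle-like cells it was -0.32 and 0.10, and in the unnamed shallow cluster with Igfbp6 -0.26 and 0.10. The monocyte-like contrast did not hold in the finer nonclassical monocyte-like cluster. There the sum was higher after ventilation at both ages, at 9492, 10960, 8744 and 10410 CPM. Atp5mpl, a small subunit of ATP synthase, was past 1.5-fold in opposite directions in the unnamed shallow cluster with Apln, at 322.2 CPM without and 183.3 CPM with ventilation in the young, and 155.8 CPM and 246.8 CPM in the aged (log2 -0.81 and 0.63). Its aged values rest on 19 and 38 UMIs, and the counting interval of the aged ratio (0.891 to 2.91) included 1, while that of the young (0.372 to 0.864) did not.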

How the results depend on the processing

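No paired analysis was possible because the labels give no replicate numbers and each group is a single library. The alternatives varied the cell limits, scaling, weighting of cells, depth per cell, clustering, gene filter and fold, and 1 (without both shallow clusters) was chosen after seeing the data. Over 16 alternatives the log2 ratio of the summed members ran from -0.37 to -0.20 in the young after ventilation (-0.29 as reported), from -0.04 to 0.08 in the aged (0.00), from -0.12 to -0.04 between the nonventilated libraries (-0.10) and from 0.18 to 0.22 between the ventilated libraries (0.20). The direction was kept in 16, 9, 16 and 16 of them. The cause of these shifts was not tested.

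Values beyond counting error, in the order young after ventilation, aged after ventilation, nonventilated libraries and ventilated libraries where more than 1 is given, were as follows. Without upper limits on genes and UMIs they were -0.20, 0.0558, -0.0372 and 0.22, without the percentile step -0.23, 0.0640, -0.0803 and 0.21, and with the percentile over all barcodes -0.23, 0.0662, -0.0831 and 0.22. Thinned cells gave -0.37, -0.0370, -0.12 and 0.22, and totals without mitochondrial, ribosomal protein and Malat1 UMIs -0.33, -0.0082, -0.11 and 0.21. For the first 3 comparisons, a mitochondrial limit of 5% gave -0.27, 0.0284 and -0.0895, a limit of 20% -0.30, -0.0128 and -0.0889, and classes weighted by their mean share of UMIs -0.26, 0.0529 and -0.11. Centring on all genes gave -0.28, 0.0762 and, between the ventilated libraries, 0.22, and the mean per cell -0.33, -0.0123 and 0.22. Without the highest Scrublet scores the aged ratio was 0.0193 and that between ventilated libraries 0.22. The median over members gave -0.0890 and 0.21 for the comparisons by age, and the sum without the 5 most abundant members -0.0066 in the aged and 0.18 between the ventilated libraries.

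At a lower threshold, a log2 ratio of 0.32 in size, 32 members were lower in the young after ventilation in place of 9 (27.5% of all genes), 3 lower and 3 higher in the aged in place of 1 and 0 (25% and 18.5%), 2 lower between the nonventilated libraries (6.29%) and 11 higher between the ventilated libraries (12.8%) in place of 0. With a mean of at least 10 CPM, 2 were lower in the aged after ventilation and 1 in each comparison by age (15.8%, 1.51% and 5.28% of all genes), and with no mean filter 5, 1 and 2 (24.5%, 5.39% and 7.94%). Of 14 classes, 10, 6, 9 and 2 were lower in the same order, and 1 in place of 2 between the ventilated libraries at 5% mitochondrial UMIs, without the highest Scrublet scores and by the mean per cell. Over single classes, 766 of 820 values kept their direction, and 315 of the 319 whose reported log2 ratio was at least 0.2 in size. The young direction in monocyte-like cells was among those lost, with a range of -0.29 to 0.08 (the latter without upper limits on genes and UMIs).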

Other observations

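Glycolytic enzymes, a list set beside the respiratory chain, were higher after ventilation at both ages, with log2 ratios of the summed list of 0.43 in the young and 0.45 in the aged, and 9 of the 12 gene identifiers that passed the filter were higher by any amount at either age, against 48.7% of all genes in the young and 42.5% in the aged. Ldha, the lactate dehydrogenase subunit that favors lactate formation, was at 136 CPM without and 289 CPM with ventilation in the young, and 139 CPM and 253 CPM in the aged. Hk2, an inducible hexokinase, was at 45.3, 120, 53.7 and 66.5 CPM in the same order, Pgk1 at 52.3, 79.7, 56.6 and 105 CPM, and Gapdh at 236, 314, 261 and 376 CPM. Ldha passed 1.5-fold upward in 10 of the 14 classes in the young and 8 in the aged (1.99% and 1.17% of all genes read in at least 10 classes reached such counts). Bnip3l, a receptor for the removal of mitochondria, was lower past 1.5-fold in 12 classes in the young and 5 in the aged (0.185% and 7.14% of those genes reached such counts), and over all cells measured 164, 75.1, 153 and 87.3 CPM.

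Heat shock and immediate early genes had log2 ratios of -0.11 in the young and -0.28 in the aged, nuclear-retained RNAs 0.07 and -0.02, and hypoxia-responsive mitochondrial genes -0.38 and -0.12. The last values rest on Bnip3l: without it the other 6 genes of the list summed to 159.0, 173.3, 171.2 and 211.9 CPM (log2 0.12 and 0.31), and Higd1a, a small protein of the inner membrane, was higher after ventilation at both ages (70.3, 96.6, 72.9 and 97.5 CPM). Red cell RNA summed to 1.70, 299, 97.9 and 224 CPM, and 0 of the 4 platelet genes passed the filter.

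The barcodes left out for more genes or UMIs than the upper limits, 544, 593, 671 and 616 per library, held 11630, 10790, 11780 and 12450 CPM of the members.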
